A study of Mus musculus with 32 samples.

Results

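The 34 mitosis and kinetochore genes described here are a list set by symbol: Mki67, Foxm1, Melk, Top2a, 6 centromere and kinetochore genes, 4 spindle checkpoint genes, 6 mitotic kinase and chromosomal passenger genes, Cdc20, Cdca3, 6 spindle assembly genes and 6 cytokinesis genes. All 34 were matched to 1 Ensembl identifier each among the 52636 genes of the count table, and all 34 passed the filter on low counts that left 15599 genes to test. Polyadenylated RNA was sequenced from the livers of 32 mice, 1 library per mouse, in 8 groups of 4. Every mouse, controls included, was fed PTU/LID chow, which keeps the thyroid from making hormone. Knockout mice (KO, labelled as a knockout of thyroid hormone receptor beta) and wild-type mice (WT) were injected with carbon tetrachloride (CCl4), a solvent toxic to hepatocytes, or with oil. CCl4 was given at 0.4 µl/g, 2 times a week for 4 weeks, 9 injections in all. In the last week they received triiodothyronine (T3), the active thyroid hormone, in drinking water at 1 µg/ml, or PBS. Livers were taken 24 hours after the last injection. The groups were KO T3 CCl4, WT T3 CCl4, KO PBS CCl4, WT PBS CCl4, KO T3 oil, WT T3 oil, KO PBS oil and WT PBS oil. The labels used here state no age and no detail of how the knockout was made.

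In mitosis, condensed chromosomes attach to spindle microtubules through the kinetochore, a protein assembly on centromeric chromatin, and the spindle checkpoint delays separation until every chromosome is attached. Aurora and Polo kinases drive these steps, the anaphase-promoting complex ends them, and a central spindle then positions the cut between daughter cells. Most adult hepatocytes rest outside the cell cycle, so livers hold little of these transcripts, and they appear when hepatocytes or other liver cells divide, as after tissue loss or under mitogens, of which T3 is one in rodents. Transcription of this set is known to peak late in the cell cycle, through Foxm1 and through complexes that bind the cell cycle homology region, a promoter element with the letters TTTGAA, often near CCAAT boxes.

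Promoters are shown because the members moved together. Of the 34 genes, 29 had an entry among the promoters of RefSeq (GRCm38.p6, 250 bases before to 50 after each start), with 31 windows in all, while Aurkb, Foxm1, Incenp, Kif20a and Tpx2 had none. The letters TTTGAA, on either strand, were in 24 of 31 windows (77.4%), against 17.9% of all 32851 promoters of the same length. CCAAT, on either strand, was in 23 of 31 (74.2%), against 37.4% of all promoters. The motifs can overlap each other by an end base. The E2F-type motifs TTTGGCGC, GGCGGGAA and TTTCGCGC were in 0 of 31 windows and in 2.96% of all promoters. Within 50 bases of the start on either side, a range chosen after the positions were seen, TTTGAA was in 22 of 31 windows (71.0%) and in 4.94% of all promoters. In the 50 bases after the start, which are not printed below, it was in 17 of 31 windows (54.8%) and in 2.25% of all promoters. In the last 100 before the start it was in 5 of 31 (16.1%), so the printed genes show the less common placement. A match is a description of letters and not of binding. The 250 bases before the start are printed for 4 of the 5 described genes that held TTTGAA in the last 100 of them together with CCAAT, the 4 with the smallest mean adjusted p over all comparisons (Prc1 is not printed). Both motifs are in capitals, 5′ to 3′ on the gene's strand (TTCAAA and ATTGG are the same motifs on the other strand). The regions are chr7:135716380-135716629 on the minus strand (Mki67), chr11:99024190-99024439 on the minus strand (Top2a), chr19:37376132-37376381 on the plus strand (Kif11) and chr4:118437344-118437593 on the minus strand (Cdc20).
Mki67: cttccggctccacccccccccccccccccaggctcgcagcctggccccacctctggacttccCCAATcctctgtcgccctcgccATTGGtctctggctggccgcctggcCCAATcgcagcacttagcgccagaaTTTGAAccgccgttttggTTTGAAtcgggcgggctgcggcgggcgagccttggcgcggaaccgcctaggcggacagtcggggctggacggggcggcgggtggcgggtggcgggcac
Top2a: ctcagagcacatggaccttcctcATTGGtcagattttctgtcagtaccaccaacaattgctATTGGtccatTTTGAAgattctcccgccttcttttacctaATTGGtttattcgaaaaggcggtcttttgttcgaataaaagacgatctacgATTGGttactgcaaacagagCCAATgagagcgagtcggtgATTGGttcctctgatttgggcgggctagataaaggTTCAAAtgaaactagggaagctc
Kif11: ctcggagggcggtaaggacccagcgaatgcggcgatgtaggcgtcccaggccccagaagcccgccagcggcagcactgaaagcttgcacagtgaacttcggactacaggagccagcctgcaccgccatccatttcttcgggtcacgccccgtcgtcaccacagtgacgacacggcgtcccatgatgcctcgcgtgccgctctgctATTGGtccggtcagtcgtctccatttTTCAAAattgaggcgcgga
Cdc20: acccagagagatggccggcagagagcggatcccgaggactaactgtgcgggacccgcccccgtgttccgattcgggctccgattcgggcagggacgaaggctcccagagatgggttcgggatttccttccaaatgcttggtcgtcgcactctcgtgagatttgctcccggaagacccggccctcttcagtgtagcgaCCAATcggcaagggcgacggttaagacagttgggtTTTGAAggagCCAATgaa
In these sequences, TTTGAA began 116 and 98 bases before the start in Mki67, 179 and 23 bases in Top2a, 19 bases in Kif11 and 18 bases in Cdc20. Top2a held the most CCAAT boxes among these, 6, whereas Mki67 had 3, Cdc20 had 2 and Kif11 had 1.

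Library totals ran from 16985162 to 26118055 counts. Thrb, the targeted gene, kept reads in all KO livers, at 15.9 to 42.6 CPM (counts scaled to a common library total with TMM factors) against 10.7 to 66.4 CPM in WT livers. Within T3 CCl4 livers it was 15.9 to 24.4 CPM in KO and 32.8 to 44.4 CPM in WT. With oil, KO was also wholly below WT, at 22.7 to 33.7 against 43.2 to 60.6 CPM on T3 and 30.7 to 42.6 against 50.2 to 66.4 CPM on PBS. Only PBS CCl4 livers overlapped (15.9 to 23.1 CPM in KO, 10.7 to 33.1 CPM in WT). As reads remained in KO, gene counts do not fully check the deletion. Dio1, a hepatic gene induced by T3, separated the labels without overlap: 77.3 to 135 CPM in KO T3 livers, 844 to 1180 CPM in WT T3 livers, 3.95 to 20.0 CPM in KO PBS livers and 0.295 to 1.00 CPM in WT PBS livers. Hepatocyte markers were abundant throughout, with 7 markers summing to at least 49500 CPM in each liver. Without a stated strand setting in the counting, reads of Cdca8, Cdc20, Kif4, Nusap1, Kif20a and Prc1 cannot be told from those of a protein-coding gene that overlaps each on the other strand, and Foxm1 overlaps Tex52 on its own strand, so these levels are uncertain to that extent. Over all genes, 2 libraries lay farthest from their group means, WT PBS CCl4 replicate 2 and KO PBS CCl4 replicate 3. Members' counts without both are given beside the results they change.

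The mean summed level of the 34 genes was highest in WT T3 oil livers and next highest in KO T3 oil livers. By animal, from replicate 1 to 4, it was 249, 90.3, 117 and 274 CPM in KO T3 oil livers, against 498, 468, 182 and 462 CPM in WT T3 oil livers. In the PBS oil livers it was 24.2, 24.3, 25.4 and 26.2 CPM in KO and 28.6, 28.4, 24.7 and 32.4 CPM in WT. Both T3 oil groups thus lay wholly above both PBS oil groups, by a factor of the means of 7.32 in KO and 14.1 in WT. With CCl4, the T3 livers held 53.4, 62.6, 49.5 and 50.4 CPM in KO and 69.8, 105, 91.5 and 66.3 CPM in WT. The PBS CCl4 livers held 49.1, 49.5, 61.2 and 99.3 CPM in KO and 42.6, 32.2, 41.4 and 58.4 CPM in WT. The means of all 4 CCl4 groups lay between those of the PBS oil and the T3 oil groups, and the T3 and PBS ranges on CCl4 overlapped in KO but not in WT. In bulk RNA, more dividing cells and more of these transcripts per dividing cell cannot be told apart.

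**Figure D1:**
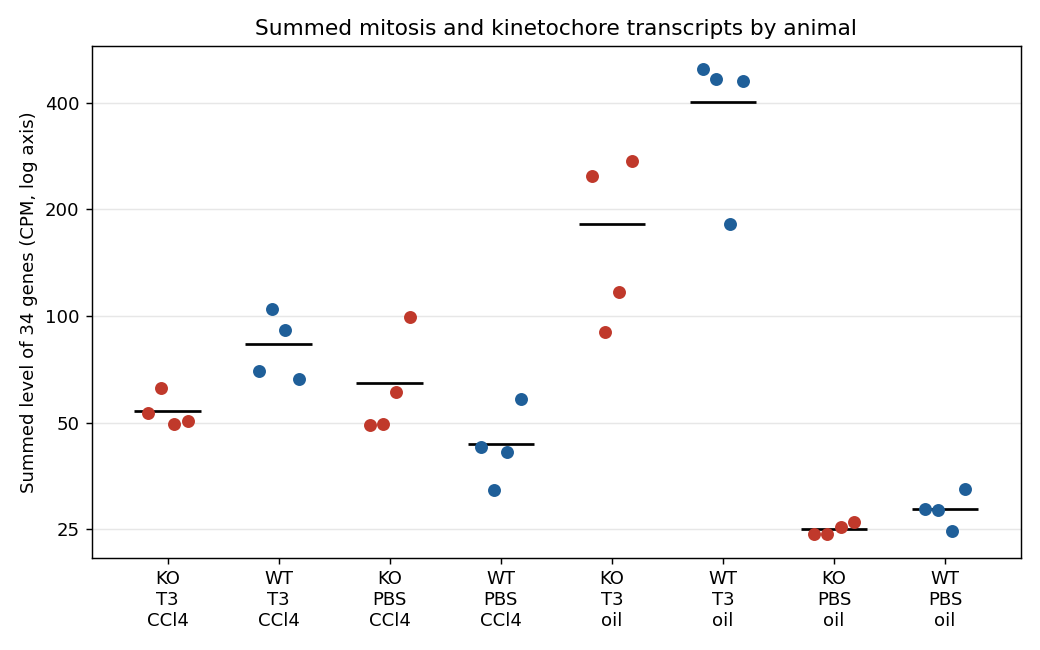
Summed level of the 34 genes in each liver, in CPM on a log axis, with 1 point per animal (red KO, blue WT) and a line at the mean of each group of 4. The means of the T3 oil groups stand highest and those of the PBS oil groups lowest. Single T3 oil livers range from 90.3 to 274 CPM in KO and 182 to 498 CPM in WT, and some overlap CCl4 livers.

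The order of the groups was shared by the members. All 34 genes had their highest mean in WT T3 oil livers and their second highest in KO T3 oil livers. The third highest mean was in WT T3 CCl4 livers for 25 genes, in KO PBS CCl4 livers for 8 and in KO T3 CCl4 livers for 1. Single animals also moved across the list. WT T3 oil replicate 3 was the lowest of its group for all 34 genes, KO T3 oil replicate 2 was the lowest of its group for 27, and KO PBS CCl4 replicate 4 was the highest of its group for 31. In WT T3 oil replicate 3, Dio1 was at 1080 CPM, within the 857 to 1180 CPM of its group.

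**Figure D2:**
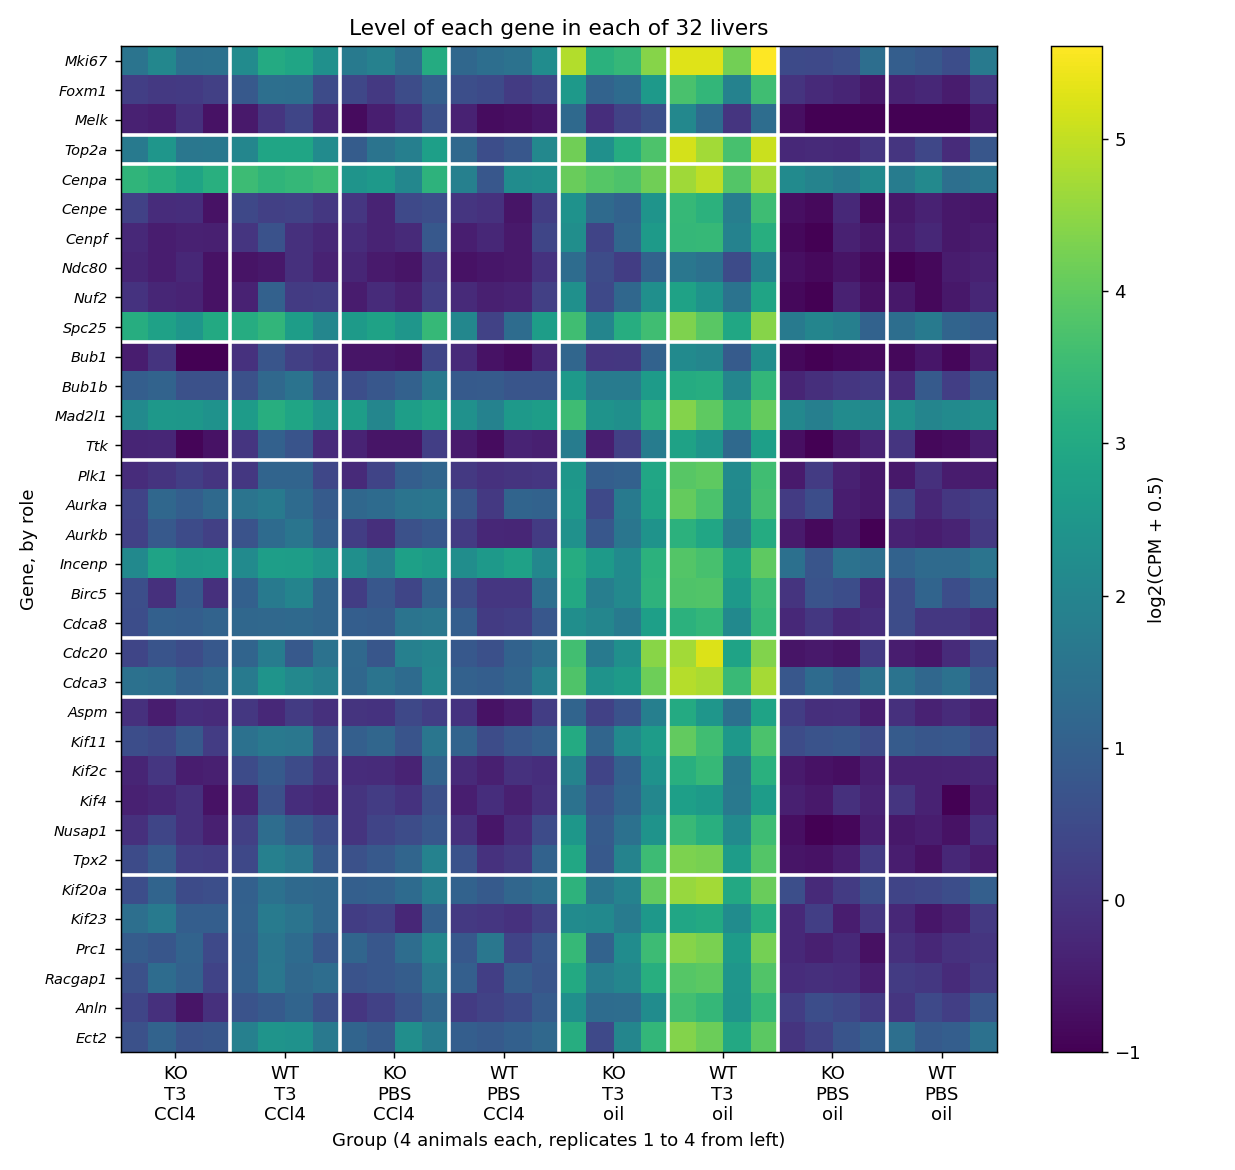
Level of each of the 34 genes (rows, grouped by role) in each of the 32 livers (columns, 4 per group), as log2(CPM + 0.5). The columns of the T3 oil groups are the brightest in nearly every row, and within them WT replicate 3 is darker than the other WT animals in every row, as is KO replicate 2 among KO animals in most rows.

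T3 given to livers injected with oil raised the whole list in both genotypes. All 34 members were called higher in KO, where 10.6% of all tested genes were called higher, and all 34 in WT, where 19.0% were (edgeR's quasi-likelihood test, Benjamini-Hochberg adjusted p of 0.05 or less, here and below). The median log2 fold change was 3.49 in KO (range 0.98 to 5.26) and 4.35 in WT (range 1.90 to 5.96), while the median of all tested genes was 0.01 in KO and -0.02 in WT. The T3 and PBS animals did not overlap for 30 of 34 members in KO and for 34 of 34 in WT, whereas 12.8% and 20.5% of tested genes had every T3 animal above every PBS animal. Leaving out any 1 of the 8 libraries compared kept all 34 calls in WT, and in KO 33 or 34 of them: Mad2l1 was lost without KO T3 oil replicate 1.

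Mki67 (ENSMUSG00000031004, chromosome 7, 135689784 to 135716361), whose protein coats mitotic chromosomes and marks cycling cells, measured 28.2, 8.81, 10 and 20.8 CPM in KO T3 oil livers, against 0.903, 0.863, 1.01 and 2.13 CPM in KO PBS oil livers. In WT it measured 38.5, 38.9, 17.8 and 48.4 CPM on T3 and 1.46, 1.26, 0.968 and 2.72 CPM on PBS. Every T3 animal was above every PBS animal, and the log2 fold change was 3.80 ± 0.46 (SE) in KO (adjusted p = 1.33e-06) and 4.49 ± 0.46 in WT (adjusted p = 1.17e-08). Foxm1 (ENSMUSG00000001517, chromosome 6, 128362967 to 128376146), the transcription factor that activates many genes of this list, measured 5.37, 1.66, 1.97 and 5.41 CPM in KO T3 oil livers, against 0.502, 0.370, 0.308 and 0.177 CPM in KO PBS oil livers. In WT, Foxm1 measured 12.6, 9.96, 3.31 and 11.5 CPM on T3, against 0.281, 0.329, 0.210 and 0.523 CPM on PBS. Its log2 fold change was 3.38 ± 0.46 in KO and 4.79 ± 0.46 in WT. Melk, a kinase of proliferating cells, had 77 counts over the 4 KO T3 oil livers and 2 over the KO PBS oil livers, a ratio of 39.4 on scaled library totals (95% counting interval 10.5 to 331). In WT it had 177 counts on T3 and 3 on PBS, a ratio of 54.4 (18.3 to 266), and these intervals cover counting error only.

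Top2a (ENSMUSG00000020914, chromosome 11, 98992943 to 99024189), the topoisomerase that untangles sister chromatids, measured 17.5, 4.50, 7.98 and 13.1 CPM in KO T3 oil livers, against 0.351, 0.370, 0.352 and 0.532 CPM in KO PBS oil livers. In WT, Top2a measured 35.7, 25.2, 12.4 and 33.6 CPM on T3, against 0.506, 0.823, 0.379 and 1.20 CPM on PBS. The groups were far apart in both genotypes, with log2 fold changes of 4.74 ± 0.56 in KO and 5.20 ± 0.53 in WT.

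Among the 6 centromere and kinetochore genes, the median log2 fold change was 4.05 in KO and 4.39 in WT. Cenpa (ENSMUSG00000029177, chromosome 5, 30666777 to 30674830), the histone H3 variant of centromeres, was the most abundant of them in CPM, at 16.8, 14.1, 13.2 and 17.7 CPM in KO T3 oil livers, against 4.01, 3.39, 2.90 and 3.90 CPM in KO PBS oil livers. In WT, Cenpa measured 24.9, 30.5, 13.8 and 25.2 CPM on T3, against 2.92, 3.84, 2.19 and 2.46 CPM on PBS. Its log2 fold changes of 2.12 ± 0.29 in KO and 3.05 ± 0.29 in WT were below the medians of the list. Ndc80 (ENSMUSG00000024056, chromosome 17, 71496100 to 71526857), a microtubule-binding subunit of the outer kinetochore, measured 2.01, 0.946, 0.640 and 1.60 CPM in KO T3 oil livers, against 0.1, 0.0617, 0.132 and 0.0591 CPM in KO PBS oil livers. In WT, Ndc80 measured 2.55, 2.26, 0.920 and 3.29 CPM on T3, against 0, 0.0548, 0.210 and 0.262 CPM on PBS. It was the least abundant member per kilobase of exons in WT T3 oil livers (0.347 CPM per kilobase), and its log2 fold change was 3.74 ± 0.62 in KO and 3.98 ± 0.57 in WT. Nuf2 and Spc25 belong to the same complex: Nuf2 had log2 fold changes of 4.58 ± 0.66 in KO and 4.81 ± 0.62 in WT, and Spc25 of 1.65 ± 0.44 and 2.94 ± 0.46. The kinetochore motor gene Cenpe and the large kinetochore protein gene Cenpf rose in WT by 5.42 ± 0.55 and 5.08 ± 0.63.

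The 4 spindle checkpoint genes had median log2 fold changes of 3.39 in KO and 3.78 in WT. Bub1b (ENSMUSG00000040084, chromosome 2, 118598211 to 118641591), which encodes the checkpoint protein BubR1, measured 5.42, 2.84, 2.86 and 5.64 CPM in KO T3 oil livers, against 0.301, 0.432, 0.528 and 0.591 CPM in KO PBS oil livers. In WT, Bub1b measured 7.93, 8.25, 3.59 and 9.84 CPM on T3, against 0.394, 1.32, 0.673 and 1.20 CPM on PBS. Its log2 fold changes were 3.16 ± 0.39 in KO and 3.04 ± 0.37 in WT. Mad2l1, which encodes the checkpoint protein that inhibits Cdc20, had the smallest response of the list, 0.98 ± 0.26 in KO (adjusted p = 0.00903) and 1.90 ± 0.26 in WT (adjusted p = 1.65e-06). Mad2l1 was already at 3.71 ± 0.397 CPM in KO PBS oil livers and 4.10 ± 0.424 CPM in WT PBS oil livers (mean ± SD, n = 4), the highest level of any member in those groups. Ttk, the kinase that starts checkpoint signalling, and Bub1, its kinetochore partner, rose by 4.52 ± 0.73 and 4.78 ± 0.75 in WT.

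The kinases and passenger proteins had median log2 fold changes of 3.18 in KO and 3.98 in WT. Aurkb (ENSMUSG00000020897, chromosome 11, 69045647 to 69051664), the kinase of the chromosomal passenger complex, measured 4.54, 1.24, 2.51 and 4.79 CPM in KO T3 oil livers, against 0.201, 0.0617, 0.176 and 0 CPM in KO PBS oil livers. In WT, Aurkb measured 8.92, 6.99, 3.04 and 7.86 CPM on T3, against 0.281, 0.219, 0.295 and 0.575 CPM on PBS. The log2 fold change was 4.74 ± 0.55 in KO and 4.27 ± 0.48 in WT. Plk1 (ENSMUSG00000030867, chromosome 7, 122159439 to 122169873), the Polo kinase of mitotic entry and spindle function, measured 5.11, 1.48, 1.58 and 7.07 CPM in KO T3 oil livers, against 0.201, 0.617, 0.264 and 0.177 CPM in KO PBS oil livers. In WT, Plk1 measured 14.4, 15.1, 4 and 11.5 CPM on T3, against 0.169, 0.439, 0.210 and 0.209 CPM on PBS. Its log2 fold change was 3.60 ± 0.57 in KO and 5.43 ± 0.58 in WT, and the difference between genotypes was not called. Cdca8, the passenger subunit borealin, had the smallest adjusted p in KO (log2 fold change 3.33 ± 0.36, adjusted p = 2.24e-07). Birc5, the passenger subunit survivin, rose by 2.99 ± 0.48 in KO and 3.07 ± 0.46 in WT.

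Cdc20 (ENSMUSG00000006398, chromosome 4, 118432901 to 118437352), the activator of the anaphase-promoting complex, measured 11.8, 2.72, 4.43 and 21.0 CPM in KO T3 oil livers, against 0.150, 0.185, 0.132 and 0.591 CPM in KO PBS oil livers. In WT, Cdc20 measured 25.4, 37.8, 6.67 and 20.2 CPM on T3, against 0.225, 0.165, 0.379 and 0.837 CPM on PBS. Its fitted log2 fold change was the highest of the list in KO (5.26 ± 0.66, adjusted p = 1.99e-06) and 5.78 ± 0.63 in WT. The plain ratio of KO means was higher for Melk (40.8, on few PBS counts) than for Cdc20 (37.7). Per kilobase of exons Cdc20 was the most abundant member in WT T3 oil livers (12.1 CPM per kilobase), followed by Cdca3 (8.02), an F-box protein gene needed for mitotic entry.

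The 6 spindle assembly genes had median log2 fold changes of 3.41 in KO and 4.52 in WT. Kif11 (ENSMUSG00000012443, chromosome 19, 37376403 to 37421859), the motor that pushes spindle poles apart, measured 7.69, 1.72, 3.89 and 5.81 CPM in KO T3 oil livers, against 0.953, 1.11, 1.19 and 0.946 CPM in KO PBS oil livers. In WT, Kif11 measured 15.7, 11.6, 5.29 and 12.9 CPM on T3, against 1.35, 1.21, 1.26 and 0.941 CPM on PBS. The log2 fold change was 2.18 ± 0.37 in KO and 3.25 ± 0.37 in WT. Tpx2 (ENSMUSG00000027469, chromosome 2, 152847964 to 152895321), which activates Aurora A on the spindle, measured 7.33, 1.30, 3.40 and 11 CPM in KO T3 oil livers, against 0.150, 0.123, 0.220 and 0.591 CPM in KO PBS oil livers. In WT, Tpx2 measured 19.2, 18.6, 5.84 and 13.9 CPM on T3, against 0.225, 0.11, 0.337 and 0.209 CPM on PBS. With 5.96 ± 0.66 it had the highest log2 fold change of the list in WT (adjusted p = 4.31e-08), and it rose by 4.40 ± 0.65 in KO. Aspm, a spindle pole protein gene, rose by 1.88 ± 0.45 in KO and 3.96 ± 0.46 in WT.

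The 6 central spindle and cytokinesis genes had median log2 fold changes of 3.27 in KO and 4.23 in WT. Prc1 (ENSMUSG00000038943, chromosome 7, 80294450 to 80316259), which bundles the microtubules of the central spindle, measured 10.2, 1.66, 4.14 and 11.1 CPM in KO T3 oil livers, against 0.351, 0.247, 0.352 and 0.118 CPM in KO PBS oil livers. In WT, Prc1 measured 20.6, 19.1, 5.66 and 18.4 CPM on T3, against 0.450, 0.329, 0.463 and 0.523 CPM on PBS. The log2 fold change was 4.60 ± 0.56 in KO and 5.15 ± 0.54 in WT. Anln (ENSMUSG00000036777, chromosome 9, 22332012 to 22389188), the contractile ring scaffold anillin, measured 4.39, 2.01, 2.07 and 4.16 CPM in KO T3 oil livers, against 0.652, 0.987, 0.836 and 0.591 CPM in KO PBS oil livers. In WT, Anln measured 11.8, 10, 4.97 and 10.2 CPM on T3, against 0.506, 0.878, 0.673 and 1.15 CPM on PBS. Its log2 fold change was 2.04 ± 0.40 in KO and 3.52 ± 0.40 in WT. Racgap1, a subunit of the centralspindlin complex with Kif23, had the smallest adjusted p of the list in WT (log2 fold change 4.49 ± 0.41, adjusted p = 1.59e-09).

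Kupffer cell markers moved with the list: 7 of 7 were called higher on T3 in KO oil livers and 7 of 7 in WT oil livers. Their summed level was 527 to 765 CPM in KO T3 oil livers against 99.7 to 142 CPM in KO PBS oil livers, and 704 to 1120 CPM in WT T3 oil livers against 82.1 to 180 CPM in WT PBS oil livers, with none of the 7 at 0 in any group. Hepatocyte markers summed to 129000 to 171000 CPM in KO T3 oil livers against 126000 to 146000 CPM in KO PBS oil livers, and to 75000 to 106000 CPM in WT T3 oil livers against 118000 to 169000 CPM in WT PBS oil livers. Of 6 erythroid markers, 4 were called higher in KO, and 4 higher and 2 lower in WT. They summed to 296 to 637 CPM in KO T3 oil livers against 84.5 to 131 CPM in KO PBS oil livers. In WT the sums were 110 to 315 CPM against 95.8 to 146 CPM. B and plasma cell markers summed to 19.8 to 37.1 CPM in KO T3 oil livers against 7.65 to 19.3 CPM in KO PBS oil livers, with 4 of 6 called higher, and to 15.4 to 36.7 CPM against 7.83 to 19.0 CPM in WT, with 2 of 6 called. T and NK cell markers summed to 6.25 to 10.1 CPM in KO T3 oil livers against 3.16 to 3.82 CPM in KO PBS oil livers, with 3 of 7 called higher, and to 4.92 to 10.2 CPM against 2.90 to 6.86 CPM in WT, with 0 of 7 called. Monocyte-derived macrophage markers were called higher for 4 of 7 in each genotype, but their summed levels overlapped. These were 98.7 to 151 CPM in KO T3 oil livers against 69.7 to 102 CPM in KO PBS oil livers. In WT they were 66.4 to 177 CPM against 58.2 to 176 CPM. The part of these cells in the members' levels was not tested.

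**Figure D3:**
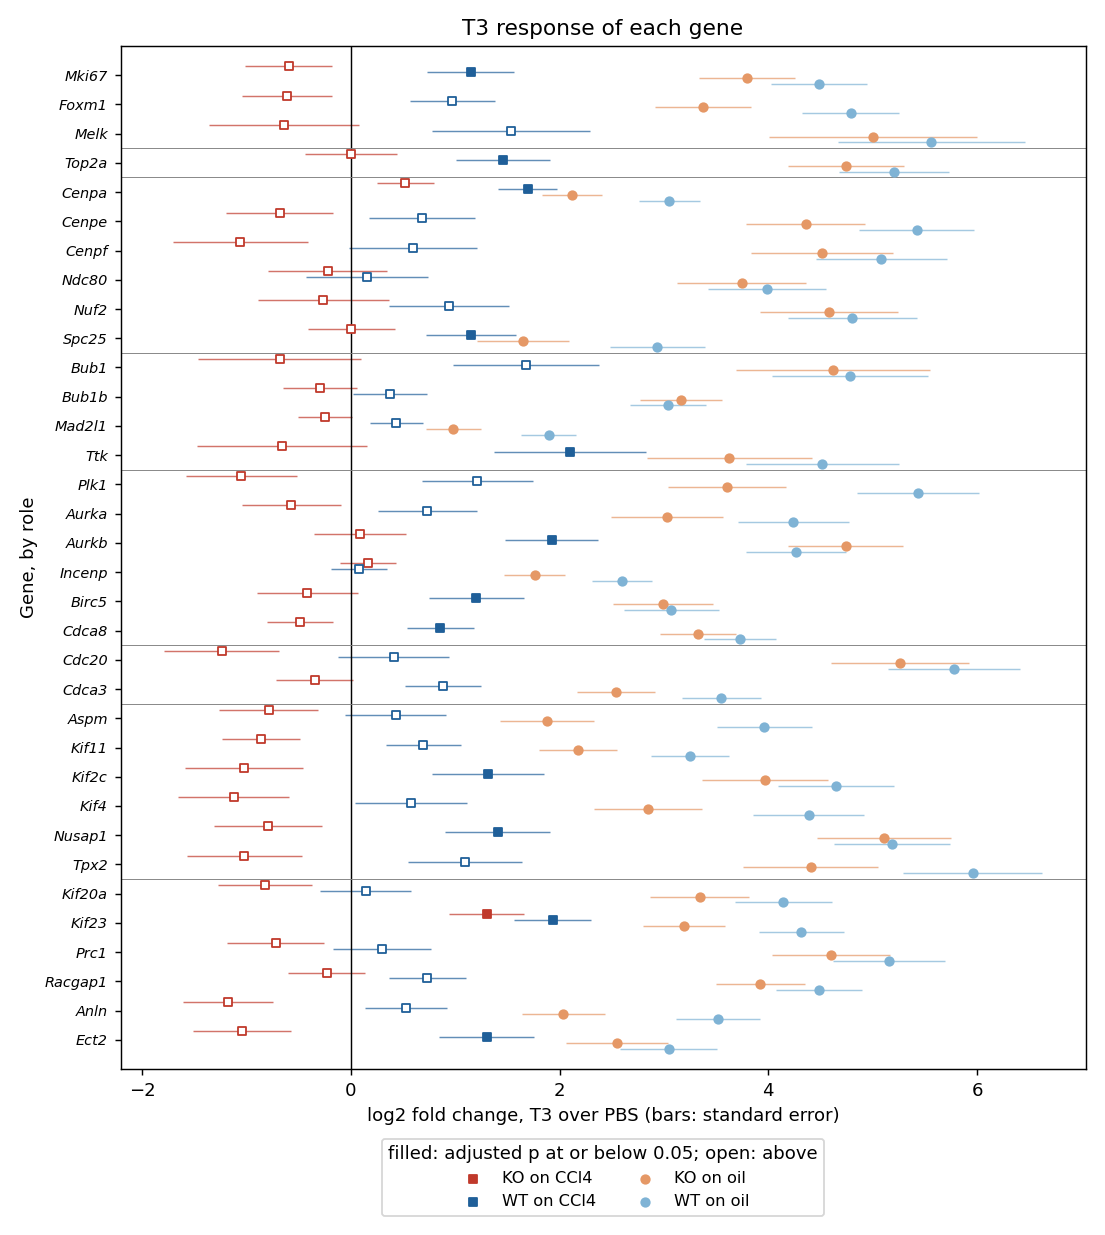
T3 response of each gene as the log2 fold change of T3 over PBS (points) with its standard error (bars), for KO and WT livers on CCl4 (squares) and on oil (circles). Filled symbols passed an adjusted p of 0.05. All 34 genes lie right of 0 on oil in both genotypes. On CCl4 the WT points lie between 0.08 and 2.10 and the KO points between -1.24 and 1.30.

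In livers injected with CCl4, T3 moved the list far less. In KO, 1 of 34 members was called higher, Kif23, where 1.77% of all tested genes were, and in WT 12 of 34, where 20.0% were. The median log2 fold change was -0.63 in KO, with 28 of 34 members negative and none called lower, and 0.91 in WT, with all 34 positive. With scaling by total counts only, which moved the median of all genes to -0.13 in KO and -0.42 in WT, 3 of 34 members were positive in KO and 30 of 34 in WT.

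Mki67 measured 2.42, 3.69, 2.22 and 2.28 CPM in KO T3 CCl4 livers, against 2.83, 3.23, 2.18 and 7.91 CPM in KO PBS CCl4 livers. In WT, Mki67 measured 4.10, 7.68, 6.86 and 4.47 CPM on T3, against 1.80, 2.14, 2.29 and 4.16 CPM on PBS. The KO groups overlapped (log2 fold change -0.59 ± 0.42, adjusted p = 0.537), and in WT only T3 replicate 1 fell below the highest PBS animal (1.15 ± 0.42, adjusted p = 0.0273). Cenpa had the smallest adjusted p in WT, with 11, 9.60, 10.1 and 11.1 CPM on T3 against 3.17, 1.24, 4.11 and 4.36 CPM on PBS, and a log2 fold change of 1.69 ± 0.28 (adjusted p = 2.73e-05). In KO, Cenpa measured 9.60, 8.35, 6.74 and 8.47 CPM on T3 against 4.87, 5.44, 3.66 and 9.17 CPM on PBS, and was not called (0.52 ± 0.27, adjusted p = 0.363). Kif23 (ENSMUSG00000032254, chromosome 9, 61915905 to 61946774), the kinesin of centralspindlin, measured 2.16, 2.80, 1.48 and 1.45 CPM in KO T3 CCl4 livers, against 0.645, 0.722, 0.332 and 1.54 CPM in KO PBS CCl4 livers. In WT, Kif23 measured 1.58, 2.85, 2.42 and 1.80 CPM on T3, against 0.561, 0.536, 0.465 and 0.687 CPM on PBS. The WT groups were apart (1.93 ± 0.37, adjusted p = 0.000148), whereas the KO call sat at the threshold (1.30 ± 0.36, adjusted p = 0.0479) and was lost when any 1 of 6 of the 8 libraries was left out. The other called members in WT were Aurkb, Top2a, Ttk, Ect2, Nusap1, Mki67, Spc25, Cdca8, Birc5 and Kif2c, with log2 fold changes of 0.86 to 2.10.

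Aurkb measured 1.12, 1.98, 2.46 and 1.53 CPM in WT T3 CCl4 livers, against 0.601, 0.330, 0.322 and 0.606 CPM in WT PBS CCl4 livers (log2 fold change 1.92 ± 0.45, adjusted p = 0.00112), without overlap. Cdc20, which had some of the highest responses on oil, measured 0.793, 1.15, 0.962 and 1.26 CPM in KO T3 CCl4 livers, against 1.86, 1.20, 3.18 and 3.52 CPM in KO PBS CCl4 livers. In WT, Cdc20 measured 1.68, 2.91, 1.29 and 2.29 CPM on T3, against 1.28, 1.03, 1.61 and 2.14 CPM on PBS. Neither difference was called, with -1.24 ± 0.55 in KO (adjusted p = 0.256) and 0.41 ± 0.53 in WT (adjusted p = 0.559). Of the other genes followed by animal, Foxm1, Ndc80, Bub1b, Plk1, Kif11, Tpx2, Prc1 and Anln were called in neither genotype.

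The count in WT rested on few libraries: it was 4 without WT T3 CCl4 replicate 2 or WT PBS CCl4 replicate 2, 5 without WT T3 CCl4 replicate 3, and 6 without WT PBS CCl4 replicate 3. Scaling by total counts alone gave 5, and leaving out both libraries far from their groups gave 5 in WT and 0 in KO. Kupffer cell markers were again called higher, 3 of 7 in KO (420 to 651 CPM on T3 against 158 to 357 CPM on PBS) and 7 of 7 in WT (590 to 898 CPM on T3 against 158 to 280 CPM on PBS), and their part was not tested. In WT, 3 of 7 monocyte-derived macrophage markers, 3 of 4 neutrophil markers and 5 of 5 cholangiocyte markers were called lower on T3.

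The T3 response itself differed between injections. On the log2 scale it was lower with CCl4 than with oil for 32 of 34 members in KO, where 2.56% of tested genes were called lower, and for 33 of 34 in WT, where 13.1% were (interaction term in the same fit). The median difference was -4.07 in KO and -3.42 in WT. Cdca8 had the smallest adjusted p in KO (difference -3.81 ± 0.48, adjusted p = 5.30e-05) and Prc1 in WT (-4.85 ± 0.70, adjusted p = 4.91e-05), and Cdc20 had the largest differences, -6.50 ± 0.86 in KO and -5.37 ± 0.82 in WT. Mad2l1 and Spc25 were not called in KO (adjusted p = 0.0578 and 0.131), nor Ttk in WT (adjusted p = 0.0949).

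CCl4 without T3 raised part of the list. In KO PBS livers 22 of 34 members were called higher, where 17.8% of tested genes were, and in WT PBS livers 7 of 34, where 24.6% were, so that in WT the share among the members was no higher than among all genes. The median log2 fold change was 1.68 in KO, with all 34 positive, and 0.73 in WT, with 31 positive and 3 negative. Every CCl4 animal was above every oil animal for 20 members in KO, where 16.2% of tested genes were, and for 7 in WT, where 16.6% were, so that the WT share was near that of all genes. The 7 called in WT were Incenp, Prc1, Cdc20, Tpx2, Racgap1, Top2a and Foxm1, with log2 fold changes of 1.18 to 2.01.

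Incenp (ENSMUSG00000024660, chromosome 19, 9872296 to 9899551), the scaffold of the chromosomal passenger complex, measured 4.37, 3.18, 6.31 and 5.65 CPM in KO PBS CCl4 livers, against 2.21, 1.17, 2.29 and 2.13 CPM in KO PBS oil livers. In WT, Incenp measured 4.21, 5.48, 6.40 and 3.68 CPM with CCl4, against 1.63, 1.92, 1.94 and 2.41 CPM with oil. Its log2 fold change was 1.31 ± 0.29 in KO (adjusted p = 0.00140) and 1.32 ± 0.29 in WT (adjusted p = 0.000518), the smallest adjusted p in WT. Cdca8 had the smallest adjusted p in KO, at 1.47, 1.40, 2.44 and 2.58 CPM with CCl4 against 0.351, 0.555, 0.352 and 0.414 CPM with oil (2.24 ± 0.36, adjusted p = 7.15e-05). In WT, Cdca8 measured 1.48, 0.618, 0.679 and 1.25 CPM with CCl4 against 0.956, 0.548, 0.547 and 0.418 CPM with oil, and these overlapped. Cdc20 rose by 3.24 ± 0.67 in KO and 1.89 ± 0.63 in WT, Top2a by 3.02 ± 0.56 and 1.43 ± 0.52, and Prc1 by 2.95 ± 0.57 and 1.71 ± 0.54. Mki67 was called in KO (1.72 ± 0.46, adjusted p = 0.00618) and not in WT (0.70 ± 0.45, adjusted p = 0.201). Melk had 41 counts in KO PBS CCl4 livers against 2 in KO PBS oil livers, a ratio of 15.9 (95% counting interval 4.12 to 135).

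The difference between genotypes in this response was called for 0 of 34 members, where 0.0192% of tested genes were called. By the edgeR test 5 had an unadjusted p under 0.05, and DESeq2 called 0. With only the PBS groups in the fit, 27 members passed the filter on low counts. In KO the count of members called higher with CCl4 was 13 without KO PBS CCl4 replicate 4, the animal with the highest level for most members. In WT it was 4 without WT PBS oil replicate 2 or 3, and 13 with scaling by total counts only, which moved the median of all genes to 0.35 in KO and 0.43 in WT. Monocyte-derived macrophage markers rose with CCl4, 5 of 7 in KO (143 to 253 CPM against 69.7 to 102 CPM with oil) and 7 of 7 in WT (179 to 389 CPM against 58.2 to 176 CPM with oil). Stellate cell and myofibroblast markers were called higher for 5 of 8 in each genotype, while 4 of 7 hepatocyte markers in KO and 6 of 7 in WT were called lower. The stellate sums were 172 to 259 CPM against 142 to 165 CPM in KO, but overlapped in WT (146 to 279 against 175 to 216 CPM). Kupffer cell markers summed to 158 to 357 against 99.7 to 142 CPM in KO and 158 to 280 against 82.1 to 180 CPM in WT. Cholangiocyte markers were at 24.6 to 36.4 against 11.5 to 16.5 CPM in KO and 25.7 to 59.7 against 12.5 to 28 CPM in WT. Their part in the members' levels was not tested.

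**Figure D4:**
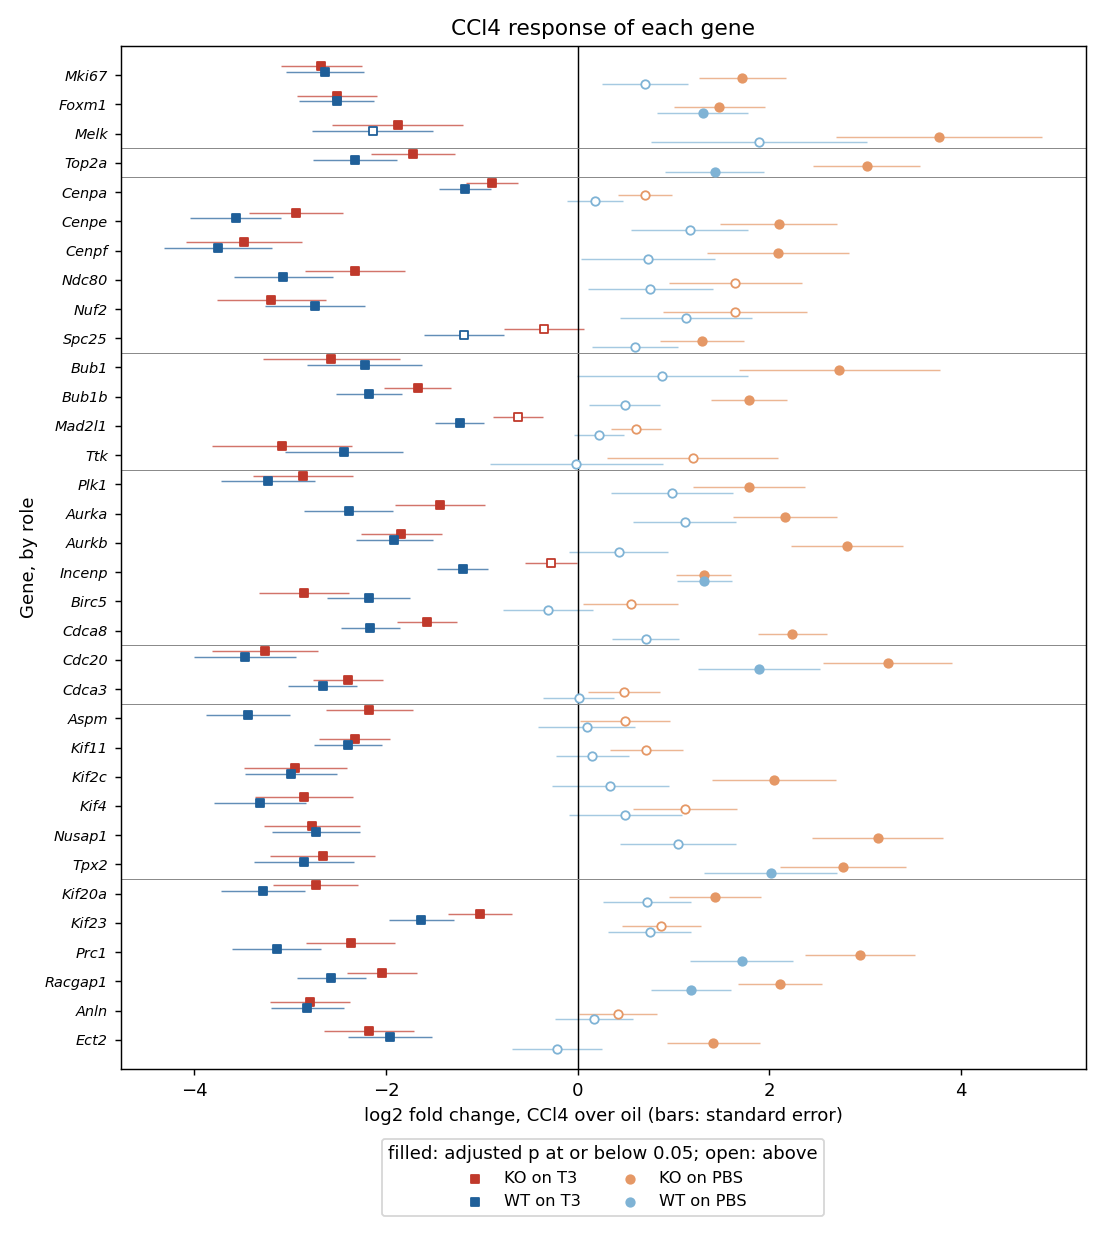
CCl4 response of each gene as the log2 fold change of CCl4 over oil (points) with its standard error (bars), for KO and WT livers on T3 (squares) and on PBS (circles). Filled symbols passed an adjusted p of 0.05. On T3 all 34 genes lie left of 0 in both genotypes, and on PBS all 34 lie right of 0 in KO and 31 in WT.

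In T3 livers the same comparison went the other way. With CCl4, 31 of 34 members were called lower than with oil in KO, where 19.8% of tested genes were, and 32 of 34 in WT, where 1.74% were. The median log2 fold change was -2.38 in KO (range -3.48 to -0.28) and -2.54 in WT (range -3.75 to -1.18). Every CCl4 animal was below every oil animal for 23 members in KO, where 18.6% of tested genes were, and for 32 in WT, where 5.95% were. These comparisons share the T3 oil livers with the T3 response on oil above.

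Cell markers moved with this comparison in KO and little in WT. In KO T3 livers, hepatocyte markers summed to 94200 to 123000 CPM with CCl4 against 129000 to 171000 CPM with oil, with 4 of 7 called lower and 1 higher. Kupffer cell markers there were at 420 to 651 CPM against 527 to 765 CPM, with 4 of 7 called lower and 1 higher, and B and plasma cell markers at 7.99 to 13.1 CPM against 19.8 to 37.1 CPM, with 4 of 6 lower. Macrophage markers were at 165 to 346 CPM against 98.7 to 151 CPM (4 of 7 higher), neutrophil markers at 32.4 to 59.8 CPM against 10.6 to 27.6 CPM (3 of 4 higher) and cholangiocyte markers at 33.4 to 53.5 CPM against 12.2 to 17.3 CPM (1 of 5 higher). In WT T3 livers 1 of 7 Kupffer cell and 1 of 7 macrophage markers were called higher, and 0 of 7 hepatocyte, 0 of 4 neutrophil, 0 of 5 cholangiocyte and 0 of 6 B and plasma cell markers were called. The part of these cells in the KO result was not tested.

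Anln had the smallest adjusted p in KO, at 0.793, 0.444, 0.148 and 0.442 CPM in KO T3 CCl4 livers against 4.39, 2.01, 2.07 and 4.16 CPM in KO T3 oil livers (log2 fold change -2.79 ± 0.42, adjusted p = 1.62e-05). Cenpe shared the smallest adjusted p in WT, at 0.839, 0.698, 0.726 and 0.545 CPM in WT T3 CCl4 livers against 10.2, 9.05, 3.08 and 11.3 CPM in WT T3 oil livers (-3.57 ± 0.47, adjusted p = 7.58e-05). Plk1 measured 0.396, 0.488, 0.666 and 0.506 CPM in KO T3 CCl4 livers, with a log2 fold change against oil of -2.86 ± 0.52. In WT T3 CCl4 livers Plk1 measured 0.559, 1.69, 1.69 and 0.817 CPM, with -3.23 ± 0.49. Each CCl4 group lay below the T3 oil group of its own genotype, given above. In KO the members not called were Mad2l1 (-0.62 ± 0.26, adjusted p = 0.0565), Incenp (-0.28 ± 0.27, adjusted p = 0.426) and Spc25 (-0.35 ± 0.42, adjusted p = 0.527). In WT they were Melk (-2.14 ± 0.63, adjusted p = 0.0565) and Spc25 (-1.19 ± 0.42, adjusted p = 0.132). The difference between genotypes was called for 0 of 34 members, where 13.5% of tested genes were called. By the edgeR test 1 had an unadjusted p under 0.05, and DESeq2 called 0.

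Calls between the genotypes were made among T3 livers. Among T3 oil livers, 18 of 34 members were called lower in KO than in WT, where 9.21% of tested genes were called lower. All 34 had a negative log2 fold change, with a median of -1.22 (range -1.71 to -0.61), and 30 had an unadjusted p under 0.05. The animals nevertheless overlapped for all members but 1, with the lowest WT animal, replicate 3, below the highest KO animal. Among tested genes 11.7% had every KO animal below every WT animal, a larger share than among the members. Anln had the smallest adjusted p, at 4.39, 2.01, 2.07 and 4.16 CPM in KO against 11.8, 10, 4.97 and 10.2 CPM in WT (-1.55 ± 0.36, adjusted p = 0.00302), and was the member without overlap. Aspm measured 1.70, 0.710, 1.08 and 3.13 CPM in KO T3 oil livers against 7.79, 5.03, 2.21 and 6.63 CPM in WT T3 oil livers (-1.71 ± 0.39, adjusted p = 0.00306). Mad2l1 measured 11.2, 4.73, 4.43 and 9.06 CPM in KO against 20.3, 15.3, 9.25 and 16.2 CPM in WT (-1.05 ± 0.25, adjusted p = 0.00473). By role, the calls were 5 of 6 cytokinesis genes, 4 of 6 kinase and passenger genes, 4 of 6 spindle assembly genes, 1 of 6 kinetochore genes (Cenpe), 1 of 4 checkpoint genes (Mad2l1), Foxm1, Top2a and Cdca3. Mki67 was near the threshold (-1.08 ± 0.39, adjusted p = 0.0542). Between the same groups, hepatocyte markers summed to 129000 to 171000 CPM in KO against 75000 to 106000 CPM in WT, with 1 of 7 called higher. Stellate cell and myofibroblast markers summed to 181 to 200 CPM in KO against 119 to 172 CPM in WT, with 1 of 8 called higher, and Kupffer cell markers to 527 to 765 CPM against 704 to 1120 CPM, with 0 of 7 called. The part of these cells in the genotype difference was not tested.

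The number of calls between these groups depended on single animals. It was 4 without KO T3 oil replicate 2 or 3, 5 without WT replicate 1, 11 without WT replicate 2 or 4, and 27 without WT replicate 3. Fitted on these groups alone it was 8. The genotype difference in T3 response on oil, which sets each genotype against its own PBS animals, was called for 1 of 34 members, Aspm (-2.08 ± 0.65, adjusted p = 0.0327), where 6.64% of tested genes were called lower, and Aspm was not called without any 1 of 8 of the 16 libraries. The median difference was -0.75, with 32 of 34 negative.

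Among T3 CCl4 livers, 6 of 34 members were called lower in KO than in WT, where 12.5% of tested genes were: Anln, Ect2, Birc5, Foxm1, Kif11 and Ttk. The share among the members was near that of all genes. The median log2 fold change was -0.83, with 33 of 34 negative, or 30 of 34 with scaling by total counts only. Anln measured 0.793, 0.444, 0.148 and 0.442 CPM in KO against 1.12, 1.34, 1.69 and 1.03 CPM in WT (-1.52 ± 0.43, adjusted p = 0.0103). Ect2, a guanine nucleotide exchange factor needed for cytokinesis, measured 1.06, 1.64, 1.11 and 1.20 CPM in KO against 3.17, 4.83, 4.64 and 2.67 CPM in WT (-1.61 ± 0.47, adjusted p = 0.0131). Foxm1 measured 0.661, 0.577, 0.592 and 0.695 CPM in KO against 1.30, 2.15, 2.14 and 0.926 CPM in WT (-1.37 ± 0.43, adjusted p = 0.0196). None of these 3 genes overlapped between the groups, and in all 10 of 34 members did not, where 16.1% of tested genes had every KO animal below every WT animal. The count was 3 without KO replicate 3, KO replicate 4 or WT replicate 2, and 2 without WT replicate 3, but 10 by DESeq2 and 12 fitted on these groups alone. Kupffer cell markers were called lower in KO for 4 of 7 (420 to 651 CPM in KO, 590 to 898 CPM in WT). B and plasma cell markers were called lower for 3 of 6 (7.99 to 13.1 CPM in KO, 14.4 to 28.4 CPM in WT). Stellate cell and myofibroblast markers were called higher for 4 of 8 (139 to 291 CPM in KO, 125 to 191 CPM in WT). Cholangiocyte markers summed to 33.4 to 53.5 CPM in KO and 8.51 to 22 CPM in WT, without overlap. Neutrophil marker sums did not overlap either (32.4 to 59.8 CPM in KO, 17.4 to 22.7 CPM in WT). Those of macrophage markers did (165 to 346 CPM in KO, 105 to 201 CPM in WT). The part of all these cells was not tested.

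The T3 response on CCl4 differed between genotypes for 11 of 34 members, all lower in KO, where 12.4% of tested genes were called lower: Ect2, Nusap1, Cenpa, Kif2c, Plk1, Cdca8, Kif11, Mki67, Anln, Aurkb and Tpx2. The median difference was -1.50, with 33 of 34 negative. Ect2 had the smallest adjusted p (-2.34 ± 0.65, adjusted p = 0.0102). The share of members called was above that of all genes, but the count was 1 without KO PBS CCl4 replicate 4 or WT PBS CCl4 replicate 2, 4 without KO T3 CCl4 replicate 3 or 4 or WT T3 CCl4 replicate 2 or 3, and 6 without KO T3 CCl4 replicate 1 or WT PBS CCl4 replicate 3. It was 5 without both libraries far from their groups and 3 with total counts alone.

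On PBS the genotypes were not called different for any member. With oil 0 of 34 were called, where 0.538% of tested genes were, 2 had an unadjusted p under 0.05 by the edgeR test, and DESeq2 called 0. The median log2 fold change was -0.45, and Aurkb had the smallest adjusted p (-1.51 ± 0.66, adjusted p = 0.531). With only these groups in the fit, 14 of 34 members passed the filter on low counts, with a median of -0.21. The others had few counts on PBS and oil, so the lack of calls says little about them. With CCl4 0 were called, where 2.25% of tested genes were, 3 had an unadjusted p under 0.05 by edgeR, and DESeq2 called 0. The median there was 0.61, with 32 of 34 positive. With only those groups in the fit, 27 members passed the filter, with a median of 0.63. Cdca8 had the smallest adjusted p (0.97 ± 0.32, adjusted p = 0.1). Without WT PBS CCl4 replicate 4 the count was 3, and without KO PBS CCl4 replicate 3 it was 1.

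A few members had higher levels at rest than the others, and 3 of these had the smallest T3 responses on oil in WT. Cdca3, Mad2l1, Spc25, Cenpa and Incenp held the most CPM per kilobase of exons in WT PBS oil livers, 0.456 to 0.681, whereas the lowest, Melk, held 0.0132. Mad2l1, Incenp and Spc25 also had the 3 smallest log2 T3 responses on oil in WT, 1.90, 2.60 and 2.94. The level at rest is the reference of that response, so they are not independent. Cdca3, with the most at rest, was not among those 3 (ratio of WT means 11.8). Incenp measured 3.88, 6.70, 5.59 and 5.75 CPM in KO T3 CCl4 livers and 4.01, 6.05, 5.93 and 4.90 CPM in WT T3 CCl4 livers, near its PBS CCl4 levels above, so that all 4 CCl4 groups overlapped. Spc25 measured 8.24, 6.39, 5.03 and 7.65 CPM in KO T3 CCl4 livers and 11.5, 3.49, 8.18 and 11.6 CPM in KO T3 oil livers, which overlapped. For Kif23, Cenpa, Aurkb, Spc25 and Incenp both T3 groups on CCl4 had higher means than both PBS groups on CCl4. In KO only Kif23 was called. The KO means on T3 and PBS were close for Spc25 (6.83 and 6.80 CPM), Aurkb (0.903 and 0.853 CPM) and Incenp (5.48 and 4.88 CPM).

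**Figure D5:**
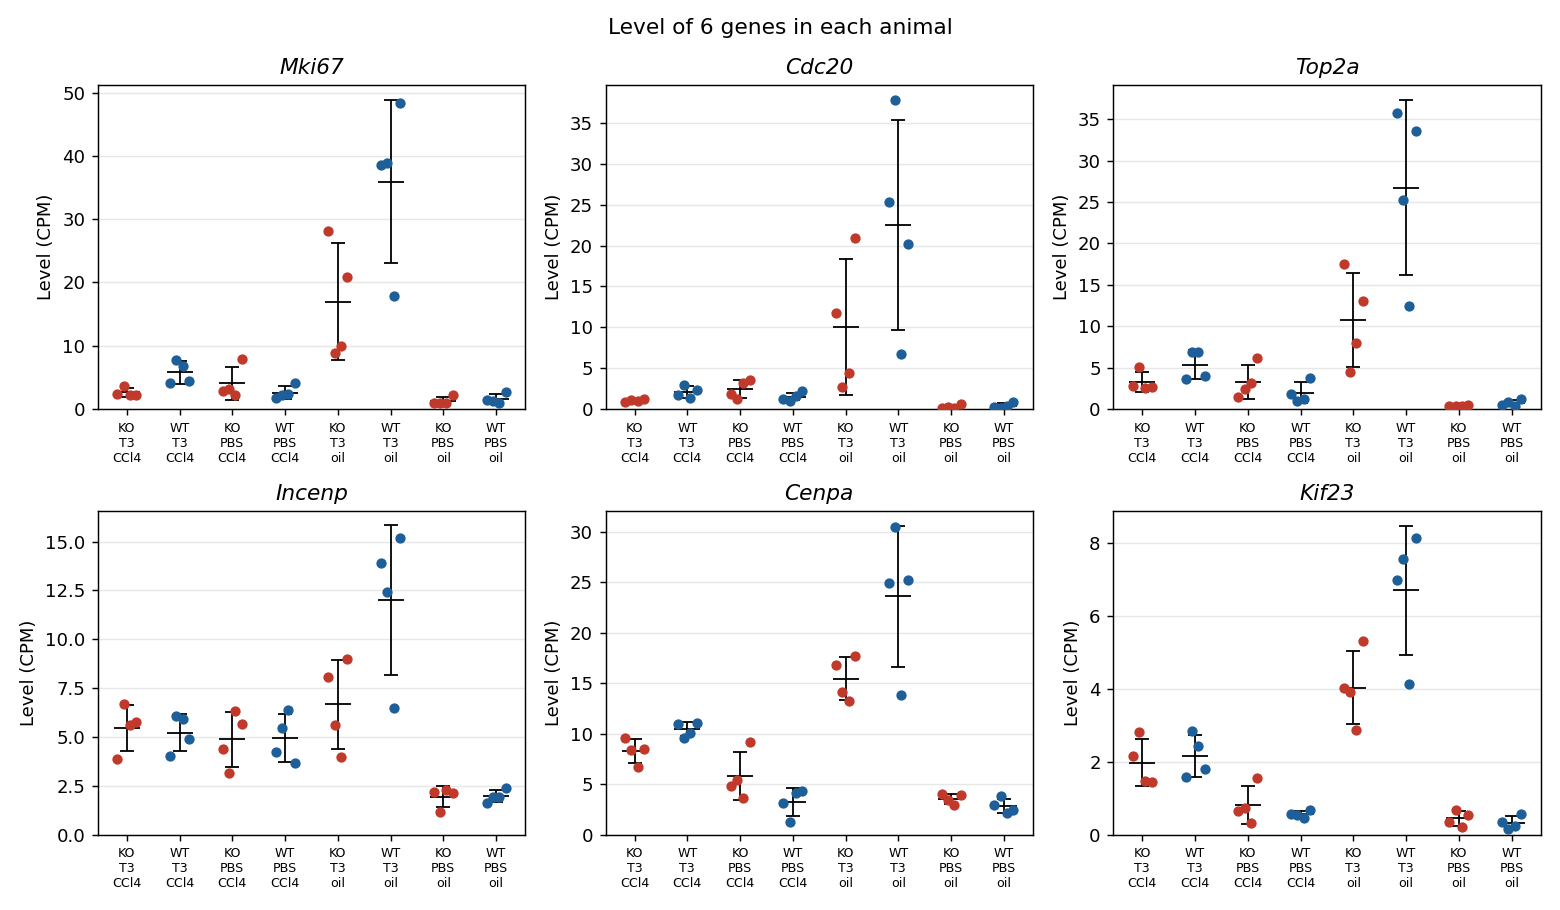
Levels in CPM of 6 genes in each liver (points, red KO, blue WT) with the mean and SD of each group of 4. Mki67, Cdc20 and Top2a have their highest means in the T3 oil groups, while the means of Incenp sit near 5 CPM in all CCl4 groups. Cenpa and Kif23 have higher means on T3 than on PBS within CCl4 livers.

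The members also varied together between animals of the same group. As a description across the 32 libraries, with group means removed, each member's log2 level correlated with the mean of the other 33 at r from 0.53 to 0.92, with a median of 0.82. Cenpa, Incenp, Kif23 and Spc25 were lowest (0.53, 0.62, 0.64 and 0.68) and Kif2c, Tpx2, Nusap1 and Cenpf highest. The points share library depth and the animals that were low or high for most of the list. Among the 15565 other tested genes the median r with the members' mean was 0, and the closest 50 included 31 genes of a wider mitosis list and 4 of a cell cycle entry and replication list. Hmmr, a spindle assembly factor (0.955), Prr11 (0.940) and Ccnb1, the mitotic cyclin B1 (0.936), were the closest.

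The wider list of 99 other mitosis genes, chosen with earlier results of these data known, was called less completely. On oil, T3 raised 56 of 99 and lowered 3 in KO, where 10.6% of tested genes were called higher, and raised 67 and lowered 4 in WT, where 19.0% were, with medians of 1.31 and 1.69. Spag5, a spindle protein gene (6.06 ± 0.69), Kif22, a chromosome-arm motor gene (3.81 ± 0.45), and Iqgap3 led in KO by adjusted p. Arhgap11a, Hmmr and Ckap2l led in WT. Those lowered in KO were the cohesin genes Smc3 and Stag2 and the anaphase-promoting complex gene Anapc1. On CCl4, T3 raised and lowered 0 of 99 in KO (16 had an unadjusted p under 0.05), where 1.77% of tested genes were called higher. In WT it raised 10 and lowered 7, a smaller share raised than the 20.0% of tested genes. CCl4 raised 45 and lowered 4 in KO PBS livers, where 17.8% of tested genes were called higher. In WT PBS livers it raised 26 and lowered 9, a share raised near the 24.6% of tested genes. In T3 livers it raised 10 and lowered 52 in KO, where 19.8% of tested genes were called lower, and lowered 49 in WT, where 1.74% were. Among T3 oil livers, where 9.21% of tested genes were called lower, 30 of 99 were lower in KO than in WT and 2 higher, led by Cdc27, a core subunit of the anaphase-promoting complex, Hjurp, the chaperone that loads Cenpa, and Mad1l1, which recruits Mad2. Of 20 cell cycle entry and replication genes, T3 raised 13 on oil in KO, and raised 15 and lowered 1 in WT. Their sum, which weighs abundant genes most, ordered the KO groups unlike the members. In KO it was 505 to 543 CPM in T3 CCl4 and 536 to 660 CPM in PBS CCl4 livers. With oil it was 215 to 337 CPM in KO T3 and 128 to 159 CPM in KO PBS livers. In WT T3 livers it was 442 to 545 CPM with CCl4 and 407 to 886 CPM with oil. In WT PBS livers it was 269 to 360 CPM and 113 to 160 CPM.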

How the data were processed

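Liver polyA RNA of 32 mice in 8 groups of 4 was sequenced. The authors deposited whole-number counts per gene. FastQC 0.11.5, Trim Galore, cutadapt, STAR 2.7.9a and the build GRCm38 are named in the submitters' processing notes. How reads were assigned to genes, with what strand option and which gene models, is not given in the sources used here, and which of 2 kits made which library is not stated per the labels' protocols. Library totals of 16985162 to 26118055 counts limit the precision for members near 0.

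The deposited counts were filtered with filterByExpr by group (minimum count 10, minimum total 15), leaving 15599 genes, scaled with TMM factors and fitted in edgeR 4.0.16 (R 4.3.3, limma 3.58.1), with 1 mean per group over all 32 libraries. Quasi-likelihood F tests gave 12 pairwise comparisons and 6 interactions, with Benjamini-Hochberg adjustment over all tested genes and calls at 0.05 or less. The standard error is the log2 fold change divided by the square root of F. The labels number animals within groups and do not say that they are littermates, so the main fit did not pair them. Each p-value sets a difference between groups against the spread between animals, estimated over all 32 libraries. The fit was also run on simulated counts with known changes, drawn independently for each gene and library. Shifts of a whole animal across many genes, as seen among the members, were not simulated, so that run does not cover them.

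Members and gene lists were chosen with earlier results of these data known. Animal values are given for 13 genes chosen by role, for the smallest adjusted p, the lowest and highest fold in a comparison, and for members that behaved apart, which includes genes chosen after their values were seen. Alternatives were other scalings, no filter, DESeq2 1.42.0, only the groups compared, a replicate block and leaving out libraries.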

Additional observations from a re-analysis of the deposited data

Results flagged for a closer look

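Some single animals stood far from the other 3 of their group, by a gap that took most of the group's range (Dixon's test). Among 112 groups of 4 looked at, 9 did, and chance gives about 1 in 20. In the WT T3 oil group, replicate 3 was low for the summed level of the members (182.0 CPM) and for Prc1 (5.66 CPM). In the KO T3 CCl4 group, replicate 2 was high for Mki67 (3.69 CPM) and Top2a (5.02 CPM). In the KO PBS oil group, replicate 4 was high for Mki67 (2.13 CPM), Top2a (0.532 CPM) and Cdc20 (0.591 CPM). Ndc80 was high in WT PBS CCl4 replicate 4 (0.485 CPM), and Plk1 in WT PBS oil replicate 2 (0.439 CPM).

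By the interaction terms, the T3 response was lower with CCl4 than with oil for 32 members in KO and 33 members in WT. It was lower in KO than in WT for 11 members on CCl4 and for 1 member, Aspm, on oil.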

How the results depend on the processing

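No count below changed direction. With total counts alone, 13 members were called for CCl4 in WT PBS livers, 5 for T3 in WT CCl4 livers, 0 for T3 in KO CCl4 livers and 3 for the genotype difference in the T3 response on CCl4. With no filter on low counts the last 2 were 0 and 6. Fitting only the groups compared gave 0 for T3 in KO CCl4 livers, 8 for KO against WT among T3 oil livers, 12 among T3 CCl4 livers and 3 for the genotype difference in the T3 response on oil. DESeq2 gave 10 for KO against WT among T3 CCl4 livers. Without the 2 libraries farthest from their groups, an alternative chosen after seeing the data, the counts were 5 for T3 in WT CCl4 livers, 0 in KO CCl4 livers and 5 for their difference. The causes were not tested.

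Leaving out 1 library at a time gave 33 to 34 calls for T3 in KO oil livers, 34 in WT oil livers, 0 to 1 in KO CCl4 livers and 4 to 14 in WT CCl4 livers. For CCl4 it gave 13 to 23 in KO PBS livers, 4 to 8 in WT PBS livers, 29 to 32 in KO T3 livers and 30 to 33 in WT T3 livers. For KO against WT it gave 4 to 27 among T3 oil livers, 2 to 8 among T3 CCl4 livers, 0 to 3 among PBS CCl4 livers and 0 among PBS oil livers. For interactions it gave 28 to 33 for CCl4 minus oil in each genotype, 0 to 3 for the T3 response on oil, 1 to 15 on CCl4, and 0 to 1 for the CCl4 response on T3.

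Deviations of same-numbered animals from their group means correlated at r of -0.41 to 0.57 between groups. Differently numbered animals were not set beside them, so this cannot show whether the numbers pair animals. With a replicate block, 10 members were called for KO against WT among T3 CCl4 livers, and no other count moved by over 1.5 times. Members at under 1 CPM, such as Melk and Bub1 on PBS and oil, rest on few counts.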
